A study of Homo sapiens with 18 samples.

Results

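RNA of 10 claudin and tight junction genes was followed across both human lung adenocarcinoma lines of the series, H1650 and PC9, each of which carries an activating EGFR mutation. The genes were taken by name from the deposited count tables: CLDN1, CLDN2, CLDN3, CLDN4, CLDN7 and CLDN12 among the claudins, OCLN and F11R among the other membrane proteins of the junction, and TJP1 and CGN among the proteins of its inner face. They are 10 of the 60399 gene identifiers found in both tables, and the rule uses no measured value, although it was set with earlier results of these data known. Each line was sequenced as Tr-BrM S100A9-inh, Tr-BrM control and BrM control, with 3 libraries in each of the 6 groups. The labels call all of them an EGFR-mutant lung cancer cell line, and the series design text calls them brain metastatic derivatives of the parental lines, so every group compared here is a derivative (BrM) and no parental library was used. S100A9-inh libraries differ from Tr-BrM controls by the treatment label alone. The sources used here do not say what Tr stands for, how S100A9 was inhibited or whether a derivative is 1 clone.

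Tight junctions seal the space between neighbouring epithelial cells near their apical edge. Claudins span the membrane and polymerise into strands that meet those of the next cell, and the mix of claudins sets which ions pass. The protein occludin (OCLN) and the junctional adhesion molecule JAM-A (F11R) lie in the same strands or beside them, and ZO-1 (TJP1) and cingulin (CGN) tie the strands to actin and myosin inside the cell. Carcinomas of glandular epithelium usually keep claudins, CLDN3 and CLDN4 among them, which also serve as receptors of Clostridium perfringens enterotoxin. In the brain itself the best known tight junctions are those of the capillary endothelium, which form the blood-brain barrier with CLDN5, a claudin of another cell type.

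Total counts ran from 17403497 to 27112362 per library in H1650 and from 18174516 to 21748732 in PC9. Levels are CPM, the count scaled to the TMM-adjusted library total, given per library or as mean ± SD with n = 3. Changes are log2 fold changes ± SE over 3 against 3 libraries. A gene rose or fell only where edgeR gave it an adjusted p under 0.05 by the quasi-likelihood F test, with the adjustment taken over every gene tested in its line. The labels do not tell whether the 3 libraries per group are separate cultures, and p-values here measure only the spread between libraries, which may be technical. S100A9 was at 96.2 ± 8.50, 307.1 ± 25.2 and 207.3 ± 9.04 CPM in H1650 S100A9-inh, Tr-BrM control and BrM control, and at 33.3 ± 2.57, 745.4 ± 11.9 and 121.7 ± 4.32 CPM in the same groups of PC9. PC9 S100A9-inh replicate 1 stood apart from its group, with a chi-square per degree of freedom of 5.94 and 5.37 against replicates 2 and 3, while those 2 gave 1.998 when set against one another. The 6 epithelial markers were EPCAM, keratins 7, 8, 18 and 19, and CDH1. In H1650 they summed to 8807 to 9154 CPM under S100A9-inh, 9040 to 9372 in Tr-BrM controls and 10786.5 to 10856 in BrM controls. In PC9 the sums were 21225 to 23378, 19992 to 20520 and 26078.5 to 26548.5 CPM in the same groups. BrM controls thus had the highest sum in both lines, although EPCAM itself rose in H1650 Tr-BrM against BrM controls (0.22 ± 0.0333). The lung lineage markers NKX2-1, NAPSA, SFTPB and SFTPC together reached at most 1.34 CPM in any library. In these bulk samples fewer cells of a type and less RNA per cell cannot be told apart.

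The stretches of 250 bases that end at an annotated start of 5 of the genes are shown here, because the results below turn on CLDN1, CLDN3, CLDN4, CLDN7 and CGN and because the regulators tested further on are known to read such sequence. They are RefSeq sequence of GRCh38.p14, 5′ to 3′ on the strand of the gene, and capitals mark the E-box CACCTG read by the SNAI and ZEB repressors (CAGGTG on the other strand) and the Grainyhead-like motif AACCNGTT (AACNGGTT on the other strand).
CLDN1, chr3:190322447-190322696, reverse strand: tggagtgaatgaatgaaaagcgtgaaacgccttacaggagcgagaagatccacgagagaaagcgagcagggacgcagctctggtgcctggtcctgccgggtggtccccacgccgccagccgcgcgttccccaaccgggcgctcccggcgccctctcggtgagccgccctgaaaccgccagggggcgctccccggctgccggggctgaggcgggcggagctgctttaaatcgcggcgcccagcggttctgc
CLDN3, chr7:73770271-73770520, reverse strand: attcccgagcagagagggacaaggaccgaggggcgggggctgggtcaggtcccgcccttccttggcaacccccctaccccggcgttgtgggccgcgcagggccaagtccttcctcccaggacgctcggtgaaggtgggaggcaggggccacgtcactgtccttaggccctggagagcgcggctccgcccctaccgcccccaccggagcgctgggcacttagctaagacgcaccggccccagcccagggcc
CLDN4, chr7:73830746-73830995, forward strand: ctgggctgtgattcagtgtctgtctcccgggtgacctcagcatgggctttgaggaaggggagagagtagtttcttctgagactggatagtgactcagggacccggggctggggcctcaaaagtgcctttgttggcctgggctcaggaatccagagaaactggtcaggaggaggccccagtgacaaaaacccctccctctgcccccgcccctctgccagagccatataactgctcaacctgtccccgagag
CLDN7, chr17:7262479-7262728, reverse strand: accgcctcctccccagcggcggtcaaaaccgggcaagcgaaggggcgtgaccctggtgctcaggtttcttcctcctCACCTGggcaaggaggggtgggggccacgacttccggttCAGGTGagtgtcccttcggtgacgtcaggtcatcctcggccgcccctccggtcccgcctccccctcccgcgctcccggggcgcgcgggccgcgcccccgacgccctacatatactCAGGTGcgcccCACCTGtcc
CGN, chr1:151511137-151511386, forward strand: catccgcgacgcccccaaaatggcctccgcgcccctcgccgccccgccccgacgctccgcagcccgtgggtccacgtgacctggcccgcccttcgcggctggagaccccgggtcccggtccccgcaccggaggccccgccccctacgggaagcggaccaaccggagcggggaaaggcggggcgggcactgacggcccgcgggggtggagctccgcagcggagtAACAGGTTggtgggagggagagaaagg

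The windows of CLDN4, CLDN7 and CGN lie inside the GENCODE span of the gene. CLDN7 has 2 starts in the table, and the one shown was chosen for its E-boxes, with 4 matches that began 174, 135, 20 and 9 bases before it. The window before the other CLDN7 start (7263214 to 7263463) held no match of the E-box or of the GC box named below. Of 35116 RefSeq promoters of the same length, 17.5% held at least 1 such match and 0.122% held at least 4. CGN held the 1 Grainyhead-like match, 27 bases before its start, where 1.49% of all promoters held at least 1. The table covered 9 of the 10 genes with 15 starts. Beside CLDN7 the E-box was found only before each listed start of OCLN and before a start of TJP1, 4 of the 15 starts with CLDN7 included. The GC box GGGCGG, a site of SP1 searched on both strands, was found 5 times before CGN, 4 times before CLDN3, 2 times before CLDN1 and 1 time each before CLDN4 and the shown start of CLDN7. It was found before 9 of the 15 starts, 1 of OCLN and 3 of TJP1 among them, against at least 1 match in 42.6% of all promoters. No E-box match overlapped a Grainyhead-like match. A match describes these letters in this window and says nothing of binding in these cells.

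The same genes did not move the same way in both lines. In H1650, 8 of the 9 tested genes rose in Tr-BrM against BrM controls and CLDN7 did not pass, where 32.2% of all 17937 tested genes rose and 31.7% fell. In PC9, CLDN1, CLDN3 and OCLN rose in the same comparison and CLDN4, CLDN7, TJP1 and CGN fell, where 29.6% of the 16169 tested genes rose and 30.3% fell. The median log2 change of the 9 genes was 0.277 in H1650 and -0.0764 in PC9, beside -0.00108 and 0.00136 over all tested genes. CLDN2 was not tested in either line, for lack of counts.

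Under S100A9-inh against Tr-BrM controls, CLDN1, TJP1 and CGN rose and CLDN4 and F11R fell in H1650, 3 and 2 of 9, where 15.4% of all tested genes rose and 13.8% fell. With libraries scaled by their totals alone, the calls over all H1650 genes in this comparison split into 2201 higher and 3193 lower, against 2762 higher and 2468 lower with TMM, and the same 3 and 2 of the 9 genes were called. In PC9, CLDN12, F11R and CGN rose and CLDN1, CLDN3, CLDN4, CLDN7 and TJP1 fell, 3 and 5 of 9, where 26.3% of all tested genes rose and 26.1% fell. The median log2 change of the 9 genes was 0.0145 in H1650 and -0.13 in PC9, beside -0.000871 and -0.00224 over all tested genes.

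Set against BrM controls, S100A9-inh libraries of H1650 had 8 of 9 genes higher and CLDN7 not passing, where 32.5% of all tested genes rose and 31.2% fell. In PC9 they had CLDN3 and OCLN higher and CLDN1, CLDN4, CLDN7, TJP1 and CGN lower, 2 and 5 of 9, where 22.7% rose and 23.6% fell. Over all PC9 genes these calls were 3675 higher and 3814 lower, and turned to 4188 and 3307 with library totals alone and 4387 and 3182 with upper quartile scaling, under both of which F11R was also called higher. Leaving out PC9 S100A9-inh replicate 1 brought the number of risen genes in that last comparison to 4, by adding CLDN12 (0.18, adjusted p = 0.0305) and F11R (0.14, adjusted p = 0.0129). Without that library the PC9 counts under S100A9-inh against Tr-BrM controls were again 3 risen and 5 fallen. The 3 comparisons of a line share their libraries, so each gene's values are set side by side below and no comparison stands as support for another.

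**Figure D1:**
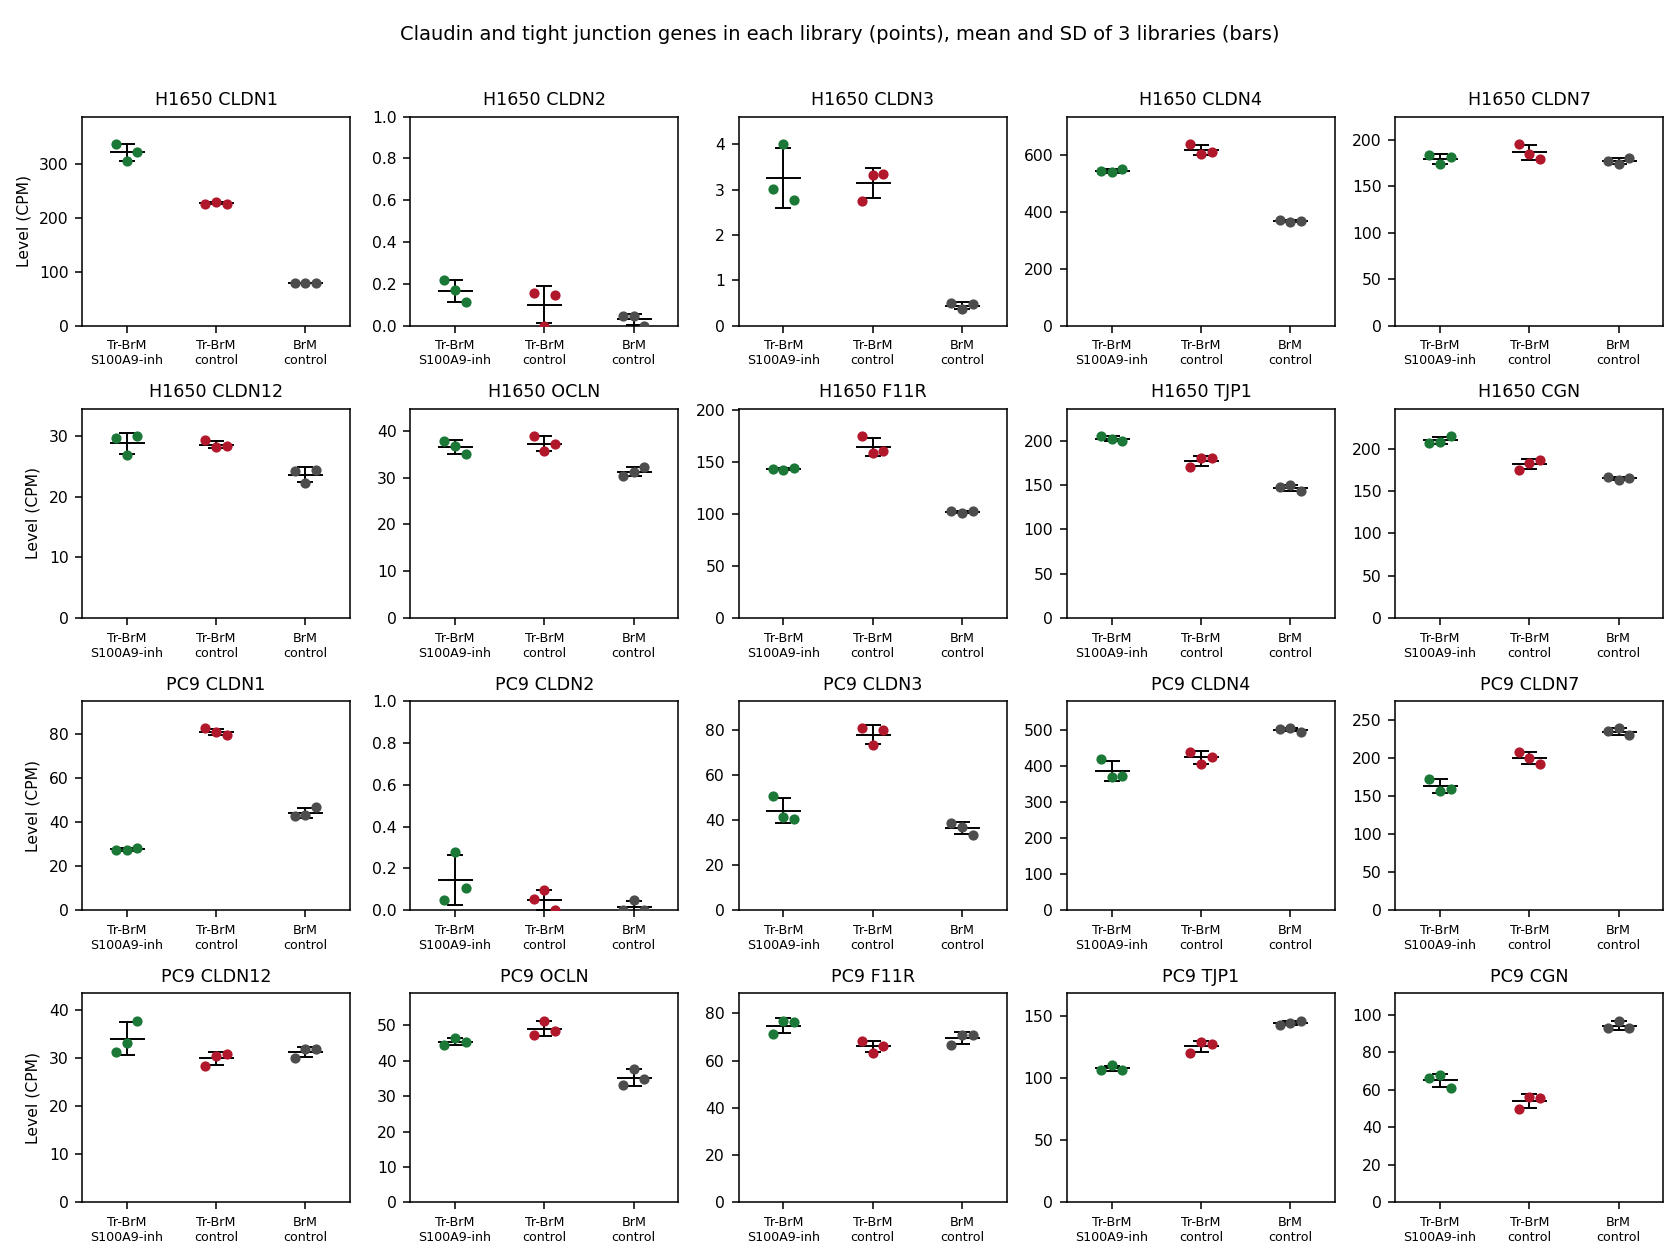
Level in CPM (y axis, linear, a scale per panel) of each of the 10 genes in H1650 (upper 2 rows) and PC9 (lower 2 rows) in Tr-BrM S100A9-inh, Tr-BrM control and BrM control libraries; points are libraries, bars the mean and SD of 3. CLDN1 was highest under S100A9-inh in H1650 (306 to 336 CPM) and lowest under it in PC9 (27.1 to 28.1 CPM).

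CLDN1, whose loss in mice opens the skin barrier, gave the largest difference between the lines among the 9 tested genes under S100A9-inh against Tr-BrM controls. In H1650 it was at 336, 306 and 321 CPM under S100A9-inh, 226, 229 and 225 CPM in Tr-BrM controls, and 79.4, 78.2 and 79.4 CPM in BrM controls. Its libraries fell into 3 separate levels, with S100A9-inh on top. It rose by 1.52 ± 0.0372 in Tr-BrM against BrM controls (adjusted p = 6.78e-24) and by a further 0.50 ± 0.0331 under S100A9-inh against Tr-BrM controls (adjusted p = 1.42e-12). In PC9 the libraries were at 27.3, 27.1 and 28.1 CPM under S100A9-inh, 82.3, 80.6 and 79.5 CPM in Tr-BrM controls, and 42.5, 43.2 and 46.6 CPM in BrM controls. Here too the groups did not overlap, but S100A9-inh was the lowest of them. CLDN1 rose by 0.87 ± 0.0538 in PC9 Tr-BrM against BrM controls (adjusted p = 8.66e-15) and fell by 1.55 ± 0.0569 under S100A9-inh against Tr-BrM controls (adjusted p = 5.07e-20), and S100A9-inh was also below BrM controls (log2 change -0.68 ± 0.0593). The gene lies on GRCh38 chromosome 3, 190305701 to 190322475, reverse strand, and CLDN16 begins 66 bases beyond it on the forward strand.

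CLDN3, a barrier-forming claudin, had few reads in H1650 and many in PC9. The H1650 libraries were at 3.01, 4.01 and 2.76 CPM under S100A9-inh, 2.76, 3.33 and 3.35 CPM in Tr-BrM controls, and 0.497, 0.364 and 0.473 CPM in BrM controls. The BrM controls were below every other H1650 library, while the S100A9-inh and Tr-BrM controls overlapped. CLDN3 rose by 2.82 ± 0.258 in H1650 Tr-BrM against BrM controls (adjusted p = 1.14e-10), from 27 counts over the 3 BrM libraries, and its change under S100A9-inh against Tr-BrM controls was 0.04 ± 0.171 (adjusted p = 0.91). In PC9 it was at 50.6, 41.4 and 40.3 CPM under S100A9-inh, 80.5, 73.1 and 79.7 CPM in Tr-BrM controls, and 38.7, 36.7 and 33.5 CPM in BrM controls. The Tr-BrM controls stood above both other groups, and replicate 1 of S100A9-inh was the highest of its group. CLDN3 rose by 1.10 ± 0.0698 in PC9 Tr-BrM against BrM controls (adjusted p = 1.71e-14), fell by 0.82 ± 0.0686 under S100A9-inh against Tr-BrM controls (adjusted p = 1.85e-11), and was 0.28 ± 0.0728 above BrM controls under S100A9-inh (adjusted p = 0.00189). Leaving out 1 library at a time moved that last value between 0.17 and 0.34, with an adjusted p of at most 0.0286.

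CLDN4, the claudin with the most reads in both lines, lies 29272 bases from CLDN3 on chromosome 7 (73799542 to 73832693, forward strand; CLDN3 at 73768997 to 73770270, reverse strand). H1650 libraries were at 544, 539.6 and 552 CPM under S100A9-inh, 640.3, 606 and 612 CPM in Tr-BrM controls, and 371, 364 and 369 CPM in BrM controls. The 3 groups did not overlap and Tr-BrM controls were the highest. The gene rose by 0.75 ± 0.0298 in Tr-BrM against BrM controls (adjusted p = 6.24e-19) and fell by 0.18 ± 0.0292 under S100A9-inh against Tr-BrM controls (adjusted p = 1.43e-05). In PC9 the order was another: 419, 369.7 and 371 CPM under S100A9-inh, 439, 405 and 424 CPM in Tr-BrM controls, and 501, 503 and 494 CPM in BrM controls. BrM controls were above every other PC9 library, and replicate 1 of S100A9-inh lay among the Tr-BrM controls. CLDN4 fell by 0.24 ± 0.0413 in PC9 Tr-BrM against BrM controls (adjusted p = 8.97e-06). Its fall of 0.13 ± 0.0415 under S100A9-inh against Tr-BrM controls (adjusted p = 0.00941) was lost without S100A9-inh replicate 2 or 3 (adjusted p = 0.063 and 0.0539). CLDN3 and CLDN4 thus changed in opposite directions in PC9 Tr-BrM controls, where CLDN3 rose and CLDN4 fell, and in the same direction in H1650.

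CLDN7 is the claudin known to bind EpCAM along the sides of epithelial cells. It varied little in H1650, at 184, 174 and 182 CPM under S100A9-inh, 196, 185 and 179.7 CPM in Tr-BrM controls, and 177, 174 and 181 CPM in BrM controls. All 3 groups overlapped. Its change in Tr-BrM against BrM controls was 0.07 ± 0.0354 (adjusted p = 0.0664), and passed with other scalings (adjusted p = 0.000265 with library totals alone, at a log2 change of 0.16). In PC9 the groups did not overlap and BrM controls were the highest, at 173, 156 and 159 CPM under S100A9-inh, 208, 200.3 and 192 CPM in Tr-BrM controls, and 236, 239 and 230.4 CPM in BrM controls. CLDN7 fell by 0.23 ± 0.042 in PC9 Tr-BrM against BrM controls (adjusted p = 1.97e-05) and by 0.30 ± 0.0427 under S100A9-inh against Tr-BrM controls (adjusted p = 7.95e-07). CLDN7 is on chromosome 17, 7259903 to 7263983, reverse strand, where its end overlaps that of ELP5 on the other strand. An unnamed protein-coding model on the same strand (7246829 to 7262089) overlaps CLDN7 too, and strand cannot tell their shared reads apart. The sources used here do not say whether counting used strand, without which reads in the ELP5 overlap cannot be told apart.

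CLDN12 lacks the C-terminal PDZ-binding motif by which most claudins hold ZO-1. H1650 libraries had 29.7, 26.8 and 30.02 CPM under S100A9-inh, 29.4, 28.2 and 28.4 CPM in Tr-BrM controls, and 24.2, 22.2 and 24.5 CPM in BrM controls, so that BrM controls were the lowest. The gene rose by 0.28 ± 0.0634 in H1650 Tr-BrM against BrM controls (adjusted p = 0.000371). In PC9 it was at 31.2, 33.1 and 37.8 CPM under S100A9-inh, 28.4, 30.5 and 30.9 CPM in Tr-BrM controls, and 30.1, 31.97 and 31.9 CPM in BrM controls. Its rise of 0.18 ± 0.0713 under S100A9-inh against Tr-BrM controls (adjusted p = 0.0328) was lost with DESeq2 (adjusted p = 0.0929) and when Tr-BrM control replicate 1, Tr-BrM control replicate 2 or S100A9-inh replicate 3 was left out (adjusted p = 0.146, 0.06 and 0.278). On chromosome 7, 90383721 to 90513402, forward strand, its model overlaps GTPBP10 and CDK14 on the same strand. Both of these rose in PC9 Tr-BrM against BrM controls (log2 change 0.50 and 1.53), where CLDN12 did not pass (-0.06 ± 0.0717, adjusted p = 0.454). Strand cannot tell their shared reads apart, also in the comparisons where CLDN12 was called.

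CLDN2, the claudin that forms a cation pore in leaky epithelia such as the kidney's proximal tubule, was close to absent, with 0 to 6 counts per library. Its summed counts were 13, 6 and 2 in H1650 S100A9-inh, Tr-BrM control and BrM control, and 9, 3 and 1 in the same groups of PC9. The filter on low counts left it out of the tests. The H1650 S100A9-inh libraries, with 6, 4 and 3 counts, were above the H1650 BrM controls, with 1, 1 and 0, and the groups of the other comparisons overlapped.

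Of the other membrane proteins, occludin (OCLN) is a MARVEL-domain protein that stabilises the strands. H1650 libraries had 37.8, 36.8 and 35.0 CPM under S100A9-inh, 38.8, 35.7 and 37.2 CPM in Tr-BrM controls, and 30.3, 31.1 and 32.2 CPM in BrM controls. PC9 libraries had 44.3, 46.3 and 45.2 CPM under S100A9-inh, 47.3, 51.3 and 48.4 CPM in Tr-BrM controls, and 33.0, 37.7 and 34.7 CPM in BrM controls. In both lines BrM controls were below every other library. OCLN rose by 0.25 ± 0.0554 in H1650 and by 0.48 ± 0.0612 in PC9 in Tr-BrM against BrM controls (adjusted p = 0.000215 and 5.95e-08). Under S100A9-inh against Tr-BrM controls its change was -0.03 ± 0.0527 in H1650 and -0.11 ± 0.0598 in PC9 (adjusted p = 0.766 and 0.11). OCLN is on chromosome 5, 69492292 to 69558104, forward strand, and a partial copy, OCLNP1, lies on the same chromosome, so reads the copy shares with it could be split in the authors' counting.

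F11R encodes JAM-A, an immunoglobulin-like adhesion protein that recruits the polarity protein PAR3. H1650 libraries were at 143, 142 and 144 CPM under S100A9-inh, 175, 158 and 160.2 CPM in Tr-BrM controls, and 102, 101 and 103 CPM in BrM controls. No group overlapped another, and Tr-BrM controls were the highest. F11R rose by 0.69 ± 0.0376 in H1650 Tr-BrM against BrM controls (adjusted p = 1.29e-15) and fell by 0.20 ± 0.0358 under S100A9-inh against Tr-BrM controls (adjusted p = 9.04e-05). In PC9 the range was narrow, with 71.0, 76.9 and 76.4 CPM under S100A9-inh, 68.3, 63.4 and 66.2 CPM in Tr-BrM controls, and 66.7, 70.8 and 71.0 CPM in BrM controls. S100A9-inh libraries were the highest and the control groups overlapped. F11R rose by 0.18 ± 0.0516 under S100A9-inh against Tr-BrM controls in PC9 (adjusted p = 0.00387). Its change under S100A9-inh against BrM controls there was 0.10 ± 0.0512 and did not pass (adjusted p = 0.0946). F11R lies on chromosome 1, 160995211 to 161021348, reverse strand. An unnamed protein-coding model on the same strand (160997957 to 161038962) overlaps F11R, and strand cannot tell their shared reads apart.

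The scaffold ZO-1 (TJP1) binds claudin tails and actin and is needed to place the strands. H1650 libraries were at 205, 202 and 199.8 CPM under S100A9-inh, 171, 180.5 and 180.5 CPM in Tr-BrM controls, and 148, 150.0 and 143 CPM in BrM controls. PC9 libraries were at 107, 110.4 and 107 CPM under S100A9-inh, 121, 129 and 127 CPM in Tr-BrM controls, and 143, 145 and 146 CPM in BrM controls. The groups did not overlap in either line and stood in opposite order, with S100A9-inh highest in H1650 and lowest in PC9. TJP1 rose by 0.27 ± 0.0337 in H1650 Tr-BrM against BrM controls and by 0.19 ± 0.0326 under S100A9-inh against Tr-BrM controls (adjusted p = 5.89e-08 and 3.77e-05). In PC9 it fell by 0.20 ± 0.042 and by 0.22 ± 0.0427 in these comparisons (adjusted p = 0.000123 and 6.92e-05). TJP1 spans chromosome 15, 29699367 to 29968865, reverse strand.

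Cingulin (CGN) holds RhoA activators such as GEF-H1 (ARHGEF2) at the junction in an inactive state. In H1650 it was at 206, 208 and 215 CPM under S100A9-inh, 175, 183 and 187 CPM in Tr-BrM controls, and 166, 163 and 165 CPM in BrM controls, without overlap. CGN rose by 0.14 ± 0.0333 in H1650 Tr-BrM against BrM controls and by 0.21 ± 0.0324 under S100A9-inh against Tr-BrM controls (adjusted p = 0.000606 and 1.1e-05). PC9 libraries were at 66.2, 67.8 and 61.2 CPM under S100A9-inh, 49.6, 56.4 and 55.9 CPM in Tr-BrM controls, and 92.8, 96.9 and 93.2 CPM in BrM controls. Tr-BrM controls were the lowest, and S100A9-inh lay between them and the BrM controls. CGN fell by 0.80 ± 0.0545 in PC9 Tr-BrM against BrM controls (adjusted p = 8e-14) and rose by 0.27 ± 0.056 under S100A9-inh against Tr-BrM controls (adjusted p = 0.000149). It lies on chromosome 1, 151510510 to 151538692, forward strand.

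**Figure D2:**
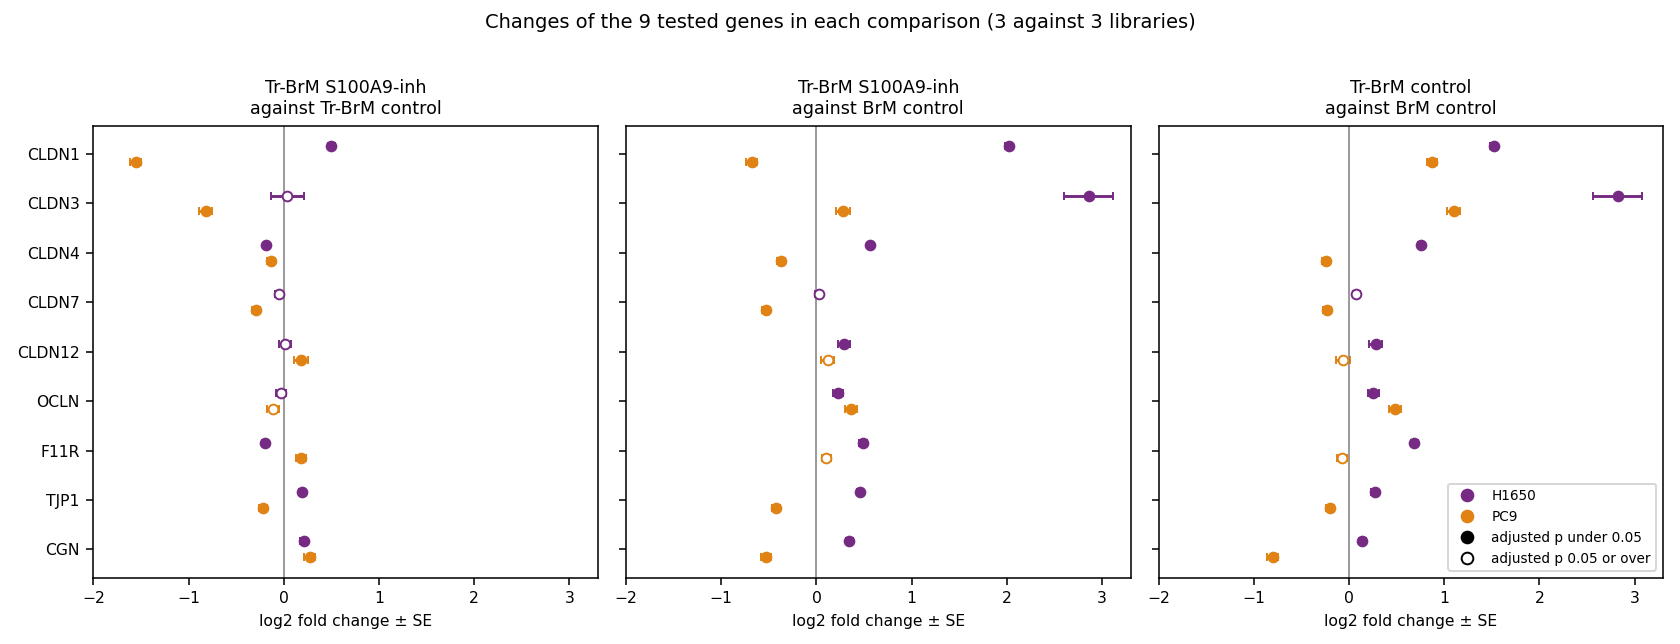
log2 fold change ± SE (x axis) of the 9 tested genes in the 3 comparisons, for H1650 (purple) and PC9 (orange), filled where the adjusted p was under 0.05. In Tr-BrM against BrM controls every H1650 point lies above 0, while the PC9 points run from -0.80 (CGN) to 1.10 (CLDN3).

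The changes were compared between the lines by an interaction contrast in 1 edgeR model of all 18 libraries. For Tr-BrM against BrM controls all 9 tested genes passed, where 54.6% of the 19076 genes tested did. The signed difference, H1650 minus PC9 on the log2 scale, was positive for 8 of them. It was 1.73 ± 0.303 for CLDN3, 0.99 ± 0.054 for CLDN4, 0.95 ± 0.0634 for CGN, 0.76 ± 0.0628 for F11R and 0.65 ± 0.062 for CLDN1. A positive difference need not mean a stronger change in H1650. CGN changed by 0.14 in H1650 and -0.80 in PC9, and CLDN7 by 0.07 and -0.23. For OCLN, which rose more in PC9, the difference was negative (-0.22 ± 0.0829, adjusted p = 0.0204). This difference was lost with library totals alone (adjusted p = 0.128) and with no filter on low counts (0.0568). It was also lost without H1650 Tr-BrM control replicate 2, PC9 BrM control replicate 1 or PC9 Tr-BrM control replicate 2 (0.0549, 0.0836 and 0.0688). For S100A9-inh against Tr-BrM controls 5 of 9 passed, where 40.4% of all genes did. The signed difference was 2.05 ± 0.0623 for CLDN1 (adjusted p = 4e-27), 0.84 ± 0.177 for CLDN3 (0.000139), 0.41 ± 0.0536 for TJP1 (3.8e-08) and 0.24 ± 0.0576 for CLDN7 (0.000755). For F11R it was negative, at -0.38 ± 0.0617 (2.16e-06). For CGN the difference was -0.07 ± 0.064 (adjusted p = 0.445). The files name CLDN2, CLDN4, OCLN and TJP1 with another version number in each line's table, so the gene models behind those counts can differ between lines.

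Per length of exon, as RPKM (the CPM divided by exon length in kilobases), CLDN4 had the highest level of the 10 genes in 6 of 6 groups, with CLDN7 or CLDN1 second, and with lengths of the longest transcript in place of all exons in 3 of 6. In H1650 S100A9-inh the order was CLDN4 (116.0 ± 1.36 RPKM), CLDN1 (87.6 ± 4.19) and CLDN7 (72.2 ± 2.18), whereas in H1650 BrM controls CLDN1 (21.6 ± 0.187) stood below CGN (24.9 ± 0.244). In PC9 CLDN3 took the third place in each group, at 34.6 ± 4.43 RPKM under S100A9-inh, 61.1 ± 3.19 RPKM in Tr-BrM controls and 28.5 ± 2.06 RPKM in BrM controls. Neighbours in the order whose libraries overlapped were CGN and TJP1 in PC9 S100A9-inh, CGN and OCLN in PC9 Tr-BrM controls, and TJP1 and CLDN1 in PC9 BrM controls. No other neighbours overlapped on this length. By longest transcript CLDN7 (93.53 RPKM) stood above CLDN1 (92.18 RPKM) in H1650 S100A9-inh.

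The make-up of the summed RNA of the 6 listed claudins differed by line and group. Claudins outside the list, such as CLDN9 in PC9, are not in this sum, so the shares are not of all claudin RNA. The 6 claudins summed to 283 ± 6.82 RPKM under S100A9-inh, 275 ± 6.60 RPKM in Tr-BrM controls and 175 ± 2.27 RPKM in BrM controls of H1650. In PC9 the sums were 195 ± 13.5 RPKM under S100A9-inh, 258 ± 8.20 RPKM in Tr-BrM controls and 246 ± 3.92 RPKM in BrM controls. CLDN1 supplied 31.0 ± 0.779%, 22.5 ± 0.624% and 12.3 ± 0.0612% of the H1650 sum under S100A9-inh, in Tr-BrM controls and in BrM controls, and CLDN7 25.5 ± 0.162%, 27.2 ± 0.556% and 40.7 ± 0.306%. In PC9 the shares of CLDN1 in the same groups were 3.87 ± 0.287%, 8.56 ± 0.196% and 4.90 ± 0.324%, and those of CLDN3 17.7 ± 1.04%, 23.7 ± 0.753% and 11.6 ± 0.687%. CLDN3 made up less than 1% of the sum in each H1650 group, at most 0.908 ± 0.206%. By length of all exons CLDN4 kept the largest share in each of the 6 groups, between 34.9 ± 0.414% in PC9 Tr-BrM controls and 47.8 ± 0.483% in H1650 Tr-BrM controls. By longest transcript CLDN7 stood above CLDN4 in H1650 BrM controls (92.2 against 88.38 RPKM). The same held in PC9 Tr-BrM controls (104.1 against 101.5 RPKM) and PC9 BrM controls (122.3 against 120.0 RPKM).

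**Figure D3:**
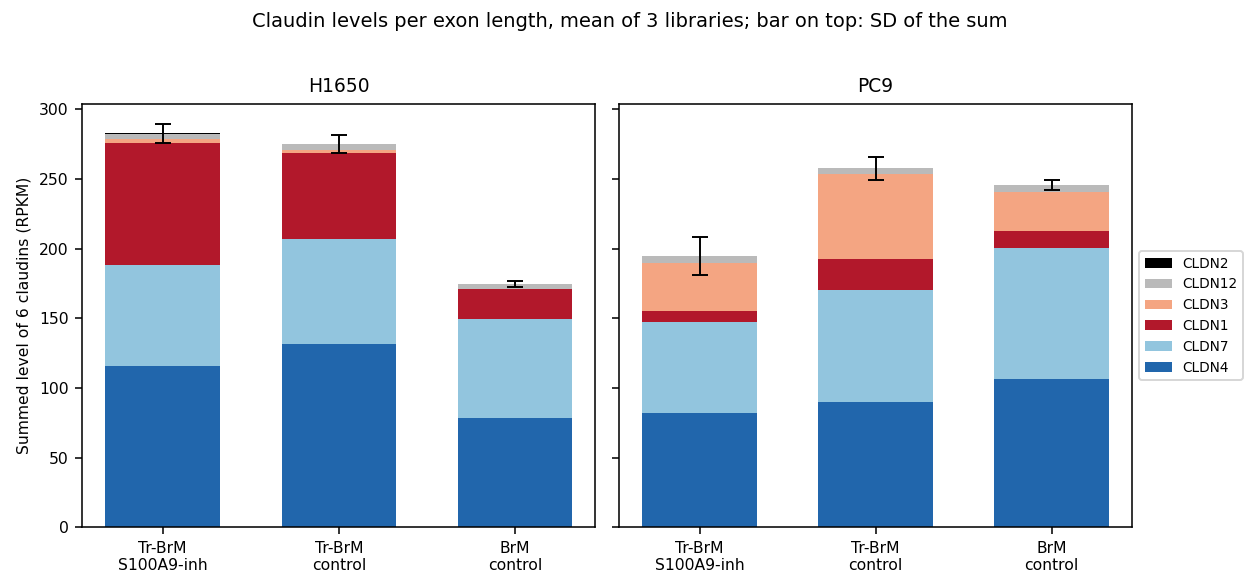
Summed level of 6 claudins per exon length (RPKM, y axis) in the 3 groups of H1650 (left) and PC9 (right), stacked by gene, mean of 3 libraries, with the SD of the sum as a bar. CLDN1 makes up 31.0% of the H1650 S100A9-inh sum and 3.87% of the PC9 S100A9-inh sum.

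Likeness between profiles was measured as the root mean square difference of log2 group means, centred within each line, over the 6 groups and 14888 genes tested in both lines. Among the 9 genes the nearest pairs were CLDN12 and F11R (0.119), CLDN7 and TJP1 (0.131) and CLDN4 and F11R (0.142). CLDN12 itself had a root mean square of only 0.108 around the line mean, so its difference from F11R exceeded its own variation. The farthest pair was CLDN3 and CGN (0.961). The genes nearest to CLDN1 were TMEM98 (0.185) and SLC16A6 (0.205), and those nearest to CLDN3 were RAPGEF4 (0.109) and MCOLN2 (0.115). CLDN4 was nearest to CNTRL (0.00955) and OXR1 (0.0288), and CLDN7 to USF3 (0.0266) and GOLGA6L9 (0.0267). CLDN12 was nearest to ACTR10 (0.0119) and SLC39A9 (0.0238), and OCLN to IER2 (0.00858) and CENPL (0.00994). TJP1 was nearest to PCBP4 (0.0323) and DNAJB9 (0.034), F11R to OVOL1-AS1 (0.0272) and LINC02980 (0.0345), and CGN to LEPROT (0.0358) and ANKRD52 (0.0421). CLDN1 and CLDN3 had no gene as near as the others had, and their own profiles were the widest, with a root mean square of 0.755 and 0.927 around the line mean.

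The other tight junction genes, listed by role, were mostly low among claudins and mixed elsewhere. Of 18 other claudins, 6 were tested in H1650 and 4 in PC9, and 2 rose and 2 fell of the 6 in H1650 Tr-BrM against BrM controls, near the 32.2% and 31.7% of all tested genes. In PC9 2 of the 4 fell and 2 did not pass, where 30.3% of all tested genes fell. CLDN16, a claudin of magnesium reabsorption in the kidney and the neighbour of CLDN1, was at 8.27 ± 0.569 CPM under S100A9-inh, 9.32 ± 0.0409 CPM in Tr-BrM controls and 0.501 ± 0.0887 CPM in BrM controls of H1650, a rise of 4.18 ± 0.175 between the controls (adjusted p = 2.16e-18). In PC9 it was at or below 0.203 CPM in each group. CLDN15 fell in Tr-BrM controls of both lines, by 0.68 ± 0.124 in H1650 and 0.84 ± 0.173 in PC9 (adjusted p = 2.1e-05 and 9.81e-05). CLDN9 was at 30.3 ± 0.255, 28.1 ± 3.34 and 33.9 ± 3.06 CPM in PC9 S100A9-inh, Tr-BrM control and BrM control.

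Among 9 other membrane proteins of the junction, 5 rose and 1 fell in H1650 Tr-BrM against BrM controls, where 32.2% and 31.7% of all tested genes did. Of 6 tested in PC9, 3 rose and 2 fell, where 29.6% and 30.3% of all did. The median log2 change of the list was 0.776 in H1650 and 0.0689 in PC9. These medians are over different genes, since ILDR2, JAM2 and JAM3 were tested in H1650 only. JAM2 was called there although its control groups overlapped (0.93 ± 0.387, adjusted p = 0.0374). ILDR1, an angulin of tricellular junctions, rose in both lines, to 1.86 ± 0.37 CPM in H1650 Tr-BrM controls, against 1 count in all BrM libraries, and to 4.38 ± 0.533 CPM in PC9 Tr-BrM controls, against 0.465 ± 0.0406 CPM in BrM controls. CRB3, the apical polarity protein Crumbs3, rose by 0.78 ± 0.119 in H1650 and fell by 0.51 ± 0.0806 in PC9 (adjusted p = 1.82e-06 and 2.79e-06). The angulin LSR had the most reads of this list, and fell by 0.12 ± 0.0311 in H1650 and rose by 0.14 ± 0.0409 in PC9.

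Of 20 other plaque and polarity proteins, all tested in both lines, 10 rose and 6 fell in H1650 Tr-BrM against BrM controls, where 32.2% and 31.7% of all tested genes did, and 3 rose and 9 fell in PC9, where 29.6% and 30.3% did. Under S100A9-inh against Tr-BrM controls 6 rose and 1 fell in H1650, beside 15.4% and 13.8% of all tested genes, and 7 rose and 3 fell in PC9, beside 26.3% and 26.1%. The RhoA activators ARHGEF18 and ARHGEF2, both known to act at the junction, fell by 0.81 ± 0.0382 and 0.93 ± 0.0577 in PC9 Tr-BrM against BrM controls, and rose by 0.34 ± 0.0386 and 0.58 ± 0.0588 under S100A9-inh against Tr-BrM controls. In H1650 ARHGEF18 rose by 0.72 ± 0.0703 and ARHGEF2 fell by 0.22 ± 0.0586 between the controls. TJP3, which encodes ZO-3, was at 6.92 ± 0.937, 14.3 ± 0.379 and 16.8 ± 1.23 CPM in H1650 S100A9-inh, Tr-BrM control and BrM control, against 63.3 ± 3.77, 30.8 ± 0.504 and 52.8 ± 1.21 CPM in the same groups of PC9. It fell by 1.04 ± 0.0954 under S100A9-inh in H1650 (adjusted p = 1.19e-09) and rose by 1.04 ± 0.0586 in PC9 (adjusted p = 1.95e-15). The PAR3 genes PARD3 and PARD3B rose in H1650 Tr-BrM controls by 0.52 ± 0.0334 and 1.76 ± 0.124, and in PC9 PARD3 fell by 0.47 ± 0.0497 while PARD3B rose by 1.34 ± 0.208.

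**Figure D4:**
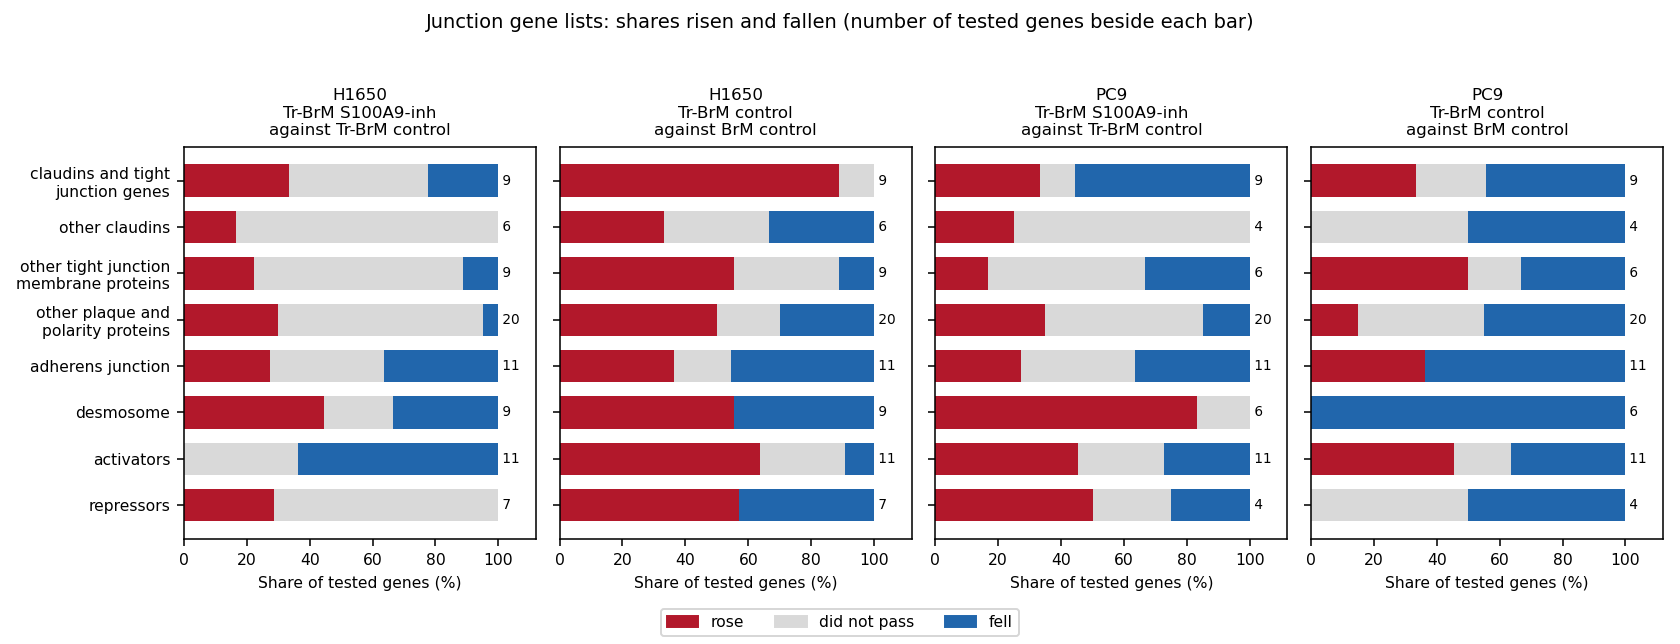
Share of the tested genes of 8 lists (x axis, %) that rose (red), did not pass (grey) or fell (blue) in H1650 (left 2 panels) and PC9 (right 2 panels), S100A9-inh against Tr-BrM control and Tr-BrM control against BrM control, with the number tested beside each bar. In PC9 Tr-BrM controls 6 of 6 desmosome genes fell, where 30.3% of all tested genes fell, and under S100A9-inh 5 of 6 rose, where 26.3% of all did.

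Genes of the other cell junctions were counted in the same way. Of 9 desmosome genes, 6 were tested in PC9 and 6 fell in Tr-BrM against BrM controls, where 30.3% of all tested genes fell, among them the desmosomal cadherin DSC2 by 0.92 ± 0.0737 and plakoglobin (JUP) by 0.42 ± 0.0394. Under S100A9-inh against Tr-BrM controls 5 of these 6 rose, where 26.3% of all tested genes rose. In H1650 5 desmosome genes rose and 4 fell between the controls, where 32.2% and 31.7% of all tested genes did, and DSC2 rose by 0.94 ± 0.0415. Larger changes there were those of DSG3, at 116 ± 3.08 CPM in BrM controls and 21.9 ± 0.891 CPM in Tr-BrM controls, and DSC3, at 23.3 ± 1.39 and 78.3 ± 2.23 CPM. Of 11 adherens junction genes, 4 rose and 5 fell in H1650 Tr-BrM against BrM controls and 4 rose and 7 fell in PC9, beside the same shares in H1650 and 29.6% and 30.3% in PC9. P-cadherin (CDH3) fell in both, by 3.04 ± 0.0372 and 1.03 ± 0.0469, while E-cadherin (CDH1) changed by 0.00 ± 0.0283 in H1650 (adjusted p = 0.988) and fell by 0.22 ± 0.0344 in PC9 (adjusted p = 2e-06).

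Transcription factors known to activate epithelial junction genes were 13, of which 11 were tested in each line. In H1650, 7 rose and 1 fell in Tr-BrM against BrM controls, where 32.2% and 31.7% of all tested genes did, and 7 fell and 4 did not pass under S100A9-inh against Tr-BrM controls, where 13.8% of all fell. GRHL1 and GRHL3, of the Grainyhead-like family whose member GRHL2 activates Cldn4 in mouse kidney epithelium, rose by 2.23 ± 0.061 and 2.73 ± 0.0795 in H1650 Tr-BrM against BrM controls. Under S100A9-inh they fell by 0.62 ± 0.05 and 0.34 ± 0.0588. GRHL2 was at 123 ± 2.36, 124 ± 1.73 and 121 ± 2.54 CPM in H1650 S100A9-inh, Tr-BrM control and BrM control, and fell by 0.32 ± 0.0433 in PC9 Tr-BrM against BrM controls. In PC9, 5 of the 11 rose and 4 fell between the controls, beside 29.6% and 30.3% of all tested genes, and 5 rose and 3 fell under S100A9-inh against Tr-BrM controls, beside 26.3% and 26.1%. Between the controls of PC9 ELF3 and KLF5 rose by 1.02 ± 0.0556 and 0.78 ± 0.0509.

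Of 7 repressors known to act on such genes, 4 rose and 3 fell in H1650 Tr-BrM against BrM controls, where 32.2% and 31.7% of all tested genes did, and 2 of 4 tested fell in PC9, where 30.3% did. ZEB2 was at 6.13 ± 0.798 CPM in H1650 Tr-BrM controls, against 0.75 ± 0.316 CPM in BrM controls, and had at most 3 counts in any PC9 group. SNAI1 and TWIST1 fell by 1.27 ± 0.075 and 2.45 ± 0.16 in H1650 Tr-BrM controls. SNAI2 rose under S100A9-inh against Tr-BrM controls in both lines, by 0.97 ± 0.118 in H1650 and 1.41 ± 0.197 in PC9 (adjusted p = 2.08e-07 and 4.65e-07).

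EpCAM stabilises claudins at the membrane, and the membrane protease matriptase (ST14), held back by SPINT1 and SPINT2, can cut EpCAM. ST14 was at 1001 ± 34.2 CPM under S100A9-inh, 1135 ± 10.7 CPM in Tr-BrM controls and 627 ± 4.56 CPM in BrM controls of H1650. In PC9 ST14 was at 193 ± 8.62, 189 ± 13.5 and 293 ± 4.54 CPM in the same groups. It rose by 0.86 ± 0.0292 between the H1650 controls and fell by 0.63 ± 0.0442 between the PC9 controls, and SPINT1 rose by 0.51 ± 0.0294 and fell by 0.46 ± 0.0415.

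The neighbours of CLDN3 and CLDN4 on chromosome 7 are ABHD11 and METTL27. ABHD11, a mitochondrial hydrolase gene, rose in Tr-BrM against BrM controls by 0.20 ± 0.0476 in H1650 and 0.76 ± 0.0566 in PC9 and fell under S100A9-inh against Tr-BrM controls by 0.21 ± 0.0463 and 0.36 ± 0.0553, the directions CLDN3 took in PC9. METTL27, which borders CLDN4, fell by 0.58 ± 0.136 in H1650 Tr-BrM controls and rose by 0.64 ± 0.21 in PC9 Tr-BrM controls, each time opposite to CLDN4. Both had lower levels than CLDN4, METTL27 at 5.59 CPM or less.

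Markers of other cell types were detected, and some moved with the groups. The 7 astrocyte markers summed to 210.5 to 223 CPM under S100A9-inh, 267 to 276 CPM in Tr-BrM controls and 35.1 to 43.1 CPM in BrM controls of H1650, and to 34.2 to 37.7, 97.7 to 103 and 15.5 to 16.6 CPM in the same groups of PC9, where 3, 3 and 1 of the 7 had no count. The 9 endothelial markers, CLDN5 among them, summed to 18.6 to 25.1, 16.3 to 19.9 and 13.0 to 15.6 CPM in H1650 and 27.2 to 32.1, 44.5 to 44.9 and 26.6 to 29.98 CPM in PC9. The 6 fibroblast markers summed to 37.4 to 45.8, 37.9 to 48.7 and 9.32 to 11.2 CPM in H1650 and 17.2 to 20.1, 12.6 to 15.1 and 26.7 to 27.2 CPM in PC9. The 8 microglia and myeloid markers summed to 99.2 to 107, 85.1 to 91.9 and 89.7 to 92.1 CPM in H1650 and 19.0 to 23.1, 11.2 to 12.1 and 30.9 to 31.9 CPM in PC9. In PC9, 1, 3 and 3 of the endothelial, 2, 3 and 3 of the fibroblast and 3, 2 and 3 of the myeloid markers had no count in S100A9-inh, Tr-BrM control and BrM control. Much of these sums came from 1 gene each in PC9, namely SLC1A3, CDH5, COL1A1 and CSF1R in the order of the lists above, and CSF1R also made up most of the myeloid sum in H1650, at 96.02, 77.5 and 85.9 CPM in S100A9-inh, Tr-BrM control and BrM control. Of the defining markers, GFAP was at 31.7, 63.2 and 8.68 CPM in H1650 S100A9-inh, Tr-BrM control and BrM control and at most 0.151 CPM in PC9, and of the microglial markers CX3CR1, P2RY12 and TMEM119 none was above 0.369 CPM in any group. In the same groups of H1650 the pan-leukocyte gene PTPRC was at 4.39, 6.25 and 1.33 CPM, and AIF1 at 0.955, 1.61 and 0.455 CPM. CD14 was at 2.17, 2.44 and 3.21 CPM there, and its change between the controls did not pass. The astrocyte marker ALDH1L1 was at 0.721, 0.642 and 2.66 CPM there and fell between the controls, where the other astrocyte markers rose. Every fibroblast marker rose between the H1650 controls, LUM from 4 counts over the BrM libraries to 353 over the Tr-BrM libraries. The part of all these markers in the results was not tested.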

How the data were processed

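Libraries for sequencing were made from poly-A RNA with TruSeq-compatible reagents, per the labels' protocols. For both lines the authors deposited a table of raw read counts per gene, whole numbers without normalization, with 9 libraries in each. Per the submitters' processing notes, the genome was GRCh38 and the tools included STAR, R 4.0.1 and DESeq2 1.28.1. The sources used here do not give STAR's version, the counter, the annotation or the use of strand, so reads of overlapping genes, antisense genes and near-identical copies may be split or merged.

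The 9 libraries of a line entered 1 fit in edgeR 4.0.16 under R 4.3.3. Genes passed filterByExpr with the groups as design, libraries were scaled by TMM, and quasi-likelihood p-values were adjusted by Benjamini-Hochberg over all tested genes, with a threshold of 0.05. Lines were compared by interaction contrasts over all 18 libraries. The SE was taken as |log2 fold change| divided by √F. The biological coefficient of variation, common to all genes, came to 0.0335 (H1650) and 0.0433 (PC9), so small differences pass. The 18 replicate pairs differed by more than sampling noise, with a chi-square per degree of freedom of 1.52 to 5.94. The fit was also run on counts simulated from its own model and dispersions, which cannot check the real spread between libraries. Positions and exon lengths came from GENCODE 29, and likeness used log2(CPM + 0.1).

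The genes, lists and alternatives were chosen with earlier results of these data known. Beside the 10 genes and S100A9, the rule names up to 4 genes per list with the smallest p between the controls, the 2 nearest profiles per gene and the neighbours of CLDN3, CLDN4 and CLDN7, and GTPBP10, CDK14, ELP5, OCLNP1 and CLDN16 were named for lying beside or across a member. The text prints a selection of these, made with their values in view. Alternatives were other scalings, filters, DESeq2 1.42.0, the 2 compared groups alone, a fold threshold, other gene lengths and leaving out each replicate.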

Additional observations from a re-analysis of the deposited data

Results flagged for a closer look

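Changes that differed between H1650 and PC9 by the interaction contrast are listed here as H1650 minus PC9 on the log2 scale. For Tr-BrM controls against BrM controls the differences were 0.65 for CLDN1, 1.73 for CLDN3, 0.99 for CLDN4, 0.31 for CLDN7, 0.34 for CLDN12, -0.22 for OCLN, 0.47 for TJP1, 0.76 for F11R and 0.95 for CGN, 9 of 9 tested genes where 54.6% of all genes passed. For S100A9-inh against Tr-BrM controls they were 2.05 for CLDN1, 0.84 for CLDN3, 0.24 for CLDN7, 0.41 for TJP1 and -0.38 for F11R. CLDN1 and TJP1 rose in H1650 and fell in PC9 under S100A9-inh, and F11R fell in H1650 and rose in PC9.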

How the results depend on the processing

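No paired analysis was possible because the labels give no replicate numbers shared between groups. Of 1350 recomputed values (72 results of single genes under their alternatives), 1286 kept their direction and side of the threshold, 45 lost the call, 11 gained it and 8, none of them called, changed sign. Against a fold of 1.5 (glmTreat), risen genes numbered 4 in H1650 Tr-BrM against BrM controls, where 2537 of 17937 tested genes rose. They numbered 0 in H1650 S100A9-inh against Tr-BrM controls (fallen 0), where 139 of all rose and 86 fell, and 2 against BrM controls, where 2390 rose. In PC9, 2 rose and 1 fell in Tr-BrM against BrM controls, where 1105 of 16169 rose and 1324 fell. Under S100A9-inh, 0 rose and 2 fell against Tr-BrM controls, where 784 rose and 545 fell, and 0 rose and 0 fell against BrM controls, where 631 rose and 531 fell. Those counts are lower by construction, since smaller changes are not called; with no fold threshold edgeR called 3 risen and 2 fallen in H1650 and 3 and 5 in PC9 under S100A9-inh against Tr-BrM controls. By exon length CLDN4 led in 6 groups and by longest transcript in 3. Leaving out 1 library gave 2 to 4 risen genes in PC9 S100A9-inh against BrM controls. Signs turned in H1650 S100A9-inh against Tr-BrM controls for CLDN12 with library totals alone (-0.0204) and, without 1 library, for CLDN12 (-0.0168 to 0.0628), CLDN3 (-0.131 to 0.139) and OCLN (-0.0606 to 0.00185), and for the CLDN4 difference between lines under S100A9-inh (-0.0848 to 0.0127). The cause was not tested. CLDN2, at 0 to 6 counts per library, is not among these results.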
